A study of Homo sapiens with 6 samples.

Results

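The interferon signalling and stimulated genes described here are 52 listed human genes: the receptors of type I and type II interferon, the kinases and transcription factors that act below them, the sensors and adaptors of viral nucleic acid, and the antiviral proteins that interferon induces. They were chosen by symbol, and 40 of the 52 had a row among the 22718 genes of the count and FPKM tables. The other 12 (IFIH1, STING1, IFIT3, IFITM1, OAS2, OASL, MX1, MX2, TRIM22, PARP12, PARP14 and SP100) had no row to match and were not analysed here. RNA sequencing was done on 6 libraries labelled HT1197, which the labels describe as a bladder carcinoma line from ATCC. In 3 libraries, lettered A to C, the cells had been given panobinostat, an inhibitor of histone deacetylases, for 48 hours at 2 times the IC50 of the line. The 3 libraries they were set against, also A to C, were labelled untreated and had been given the vehicle, 1% DMSO, for 48 hours. All cells grew in DMEM with 10% fetal bovine serum, and no interferon was among the agents named. The labels speak of dishes seeded in triplicate but do not say which library came from which dish. The p-values therefore reflect how far these particular libraries differ from one another, and that spread could be technical.

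Type I interferon binds IFNAR1 and IFNAR2, and interferon gamma binds IFNGR1 and IFNGR2. The receptor kinases JAK1 and TYK2 then phosphorylate STAT proteins. STAT2 and IRF9 act in a complex that binds the interferon-stimulated response element (ISRE) in promoters of antiviral genes, while STAT dimers bind gamma-activated sites (GAS). Cells can also switch on many of these genes through sensors of viral RNA or DNA that act on IRF3 and IRF7, and several of the genes keep a low level with no infection at all.

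The libraries held 13417898 to 18186087 counts with panobinostat and 14287080 to 18095984 with vehicle, and 3 counts stood for 0.165 to 0.224 CPM (counts scaled to the size of the library). On the first principal component, with 88.7% of the variance, the arms stood apart. The markers of the labelled tissue mostly had no row or a low level. Of 12 luminal urothelial markers 7 had a row. A mean of 1 FPKM (counts scaled to depth and transcript length) was reached by 2 with panobinostat and 1 with vehicle (GATA3, at 10.6 FPKM). UPK1B and FOXA1 had no count in vehicle, against 19 and 12 counts with panobinostat. Of 10 basal urothelial markers 6 had a row, and 2 reached 1 FPKM with panobinostat and 1 with vehicle (KRT17, at 2.04 FPKM). Of 12 adrenergic neuroblast markers, a list that an earlier analysis wrote with the most abundant genes of this table in view, 11 reached 1 FPKM in both arms. The neuroblast markers summed to 1544 to 1628 FPKM with panobinostat and 1869 to 2094 FPKM with vehicle. These data go against the tissue on the label, so the cells are called libraries labelled HT1197. Leukocytes are a strong source of interferon-stimulated transcripts; of 14 leukocyte markers 6 had a row, none reached 1 FPKM, and their sum was 0.790 to 1.13 FPKM with panobinostat and 0.802 to 1.09 FPKM with vehicle. That sum joins opposite differences. LYZ had 21 counts over the panobinostat libraries and 72 over the vehicle libraries, and without it the sum was 0.507 to 0.789 FPKM with panobinostat and 0.0167 to 0.232 FPKM with vehicle. PTPRC had 45 counts with panobinostat and 5 with vehicle, CSF1R had 35 with panobinostat and 2 with vehicle, and CD2 and CLEC4C had 10 and 15 with panobinostat and no count in vehicle. Of 6 endothelial markers 3 had a row, and they summed to 0.554 to 0.564 FPKM with panobinostat and 0.105 to 0.154 FPKM with vehicle. Fibroblast markers, which had a row in 8 of 8 cases, summed to 90.8 to 97.2 FPKM with panobinostat and 56.8 to 58.3 FPKM with vehicle. Without LUM, which stood at 42.5 FPKM with panobinostat and 0.654 FPKM with vehicle, they summed to 49.5 to 53.8 FPKM with panobinostat and 56.0 to 57.8 FPKM with vehicle. The part of these leukocyte, endothelial and fibroblast markers in the results was not tested. In bulk samples such as these, fewer cells of a type and less RNA per cell cannot be told apart.

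Promoter sequence was searched for core letters of the ISRE and GAS elements. RefSeq promoter windows on GRCh38.p14, from 250 bases before to 50 bases after a gene's start, were found for 38 of the 52 genes. The ISRE core searched was GAAANNGAAA on either strand, with overlapping matches counted. It was present in 25 of the 52 windows of these genes (48.1%), against 1255 of all 35116 windows of the same length (3.57%). The GAS core TTCNNNGAA, which reads alike on both strands, was present in 10 of the 52 windows (19.2%), against 7.66% of all windows. The stretches below come from 4 members that rose with panobinostat and 2 that fell, so that the cores of both can be read beside each other. ISG15 (chr1:1013364-1013419, plus strand) has a pair of overlapping cores that begin 113 and 107 bases before the start, and BST2 (chr19:17405725-17405780, minus strand) has overlapping cores at 130 and 124 bases. IFI6 (chr1:27672256-27672368, minus strand) has 3 cores, at 156, 115 and 93 bases. IFIT1 (chr10:89392487-89392549, plus strand) has cores at 116 and 103 bases. IFIT5 (chr10:89414503-89414593, plus strand) has 3 cores, at 45, 19 and 4 bases, and EIF2AK2 (chr2:37156957-37157006, minus strand) has 1 core, at 6 bases. Each stretch reads 5′ to 3′ in the direction of the gene, with the ISRE cores of either strand in capitals.
ISG15: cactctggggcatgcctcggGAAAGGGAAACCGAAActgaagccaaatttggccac
IFI6: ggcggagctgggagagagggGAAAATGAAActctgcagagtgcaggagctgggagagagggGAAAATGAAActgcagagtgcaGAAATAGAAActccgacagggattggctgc
BST2: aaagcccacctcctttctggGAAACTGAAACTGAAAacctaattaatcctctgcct
IFIT1: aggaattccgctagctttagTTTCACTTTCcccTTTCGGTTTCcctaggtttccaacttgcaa
IFIT5: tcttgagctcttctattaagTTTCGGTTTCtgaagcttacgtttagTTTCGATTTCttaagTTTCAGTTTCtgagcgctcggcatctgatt
EIF2AK2: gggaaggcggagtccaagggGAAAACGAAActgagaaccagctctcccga
In IFIT1 and IFIT5 the cores stand on the opposite strand to the gene, where they read TTTCNNTTTC. Of 12 members that rose and had a window, 6 held an ISRE core in it (BST2, IFI44, IFI6, IFIT1, ISG15 and RSAD2). Of 6 members that fell and had a window, 3 held one (EIF2AK2, IFIT5 and ISG20). A core was thus present in members that moved in opposite directions. A match is a description of the letters in the window and nothing more. A window with no match lacks only these exact letters, which does not show that the gene lacks the element.

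The antiviral genes moved in both directions with panobinostat. IFI6, ISG15, BST2 and OAS1 rose more than 10-fold, and XAF1, EIF2AK2, IFIT5 and ISG20 fell. SAMHD1, PML and IFI27 did not pass. Among the signalling genes STAT2 and IRF3 rose and the receptor subunit IFNGR2 fell. Of the 52 genes 32 passed the filter on low counts and were tested, and 16 of the 32 rose, 7 fell and 9 did not pass (edgeR's quasi-likelihood test, Benjamini-Hochberg adjusted p of 0.05 or less over all genes tested). Much of the transcriptome differed between the arms: 65.2% of the 16084 genes tested were called, 33.7% rose and 31.5% fell. Of the 32 interferon genes 71.9% were called, 50% rose and 21.9% fell, so the share called was near that of all genes. A rise of at least 2-fold was seen in 9 of the 32 (28.1%), against 16.8% of all genes tested, but 5 of the 9 had passed the filter through the panobinostat libraries alone, so nothing is read from that count. A fall of at least 2-fold was seen in 1 (XAF1), against 5.27%. The median log2 fold change was 0.35 over the 32 genes and 0.01 over all genes tested. The first median counts 6 genes that passed the filter through the panobinostat libraries alone, so nothing is read from it either.

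**Figure D1:**
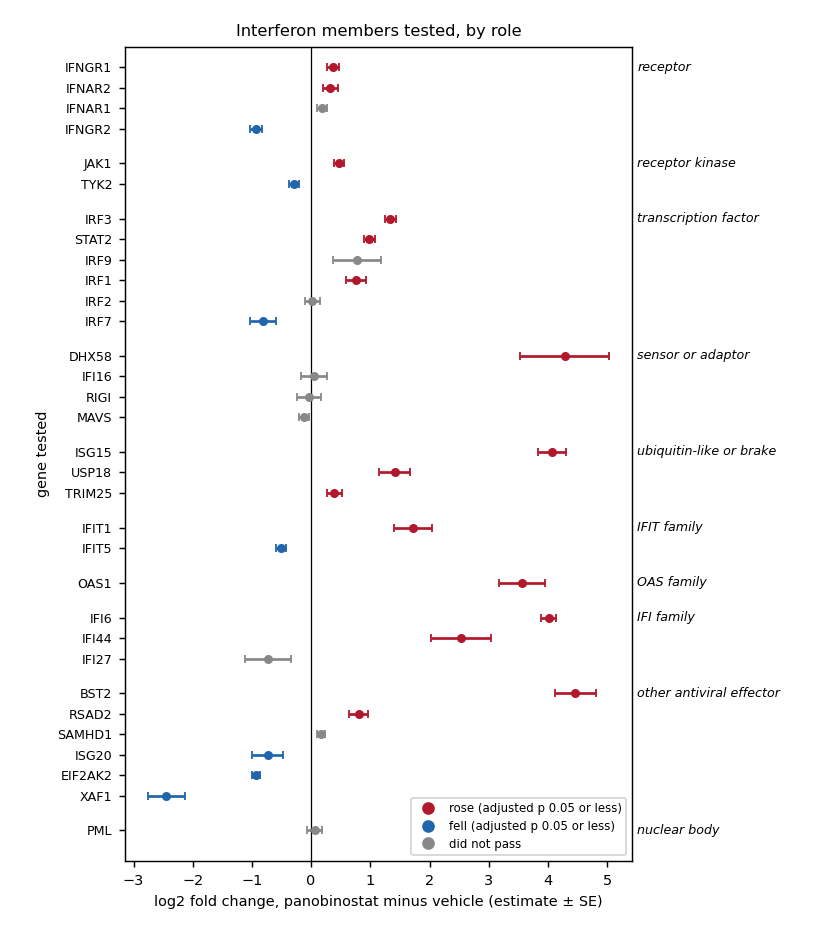
Log2 fold change (panobinostat minus vehicle, estimate ± SE) of the 32 interferon genes tested, grouped by role, with colour for the call. The 16 genes that rose reach 4.47 (BST2), and the 7 that fell reach -2.44 (XAF1).

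The filter bears on these counts. Of the 32 genes 6 were kept through the panobinostat libraries alone (IRF9, DHX58, IFIT1, OAS1, IFI44 and BST2) and 2 through the vehicle libraries alone (XAF1 and IFI27), so whether they were tested hung on the arm where they were higher. Among all genes tested 10.91% were kept through the panobinostat libraries alone. Of the 24 genes kept through both arms 11 rose and 6 fell. At least 2-fold, 4 rose (16.7%: IRF3, ISG15, USP18 and IFI6), against 9.63% of the 13753 genes so kept in the whole table. A fall of at least 2-fold was seen in 0 of the 24, against 5.17% of the 13753. The shares that rose or fell at all were not computed over the 13753, so nothing is read from the 11 and the 6. In 19 of the 32 genes each panobinostat library lay above each vehicle library, and in 7 each lay below. Over all genes tested those shares were 35.5% and 33.4%. But the 19 include all 6 genes kept through the panobinostat libraries alone, and the 7 include XAF1. Nothing is read from the 19 and the 7. Values below are CPM after TMM scaling unless FPKM is named, means carry the SD over the 3 libraries of an arm, and adjusted p-values come from edgeR's test.

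The interferons themselves could not be followed. All 10 ligand genes of a wider pathway list (IFNA1, IFNA2, IFNB1, IFNE, IFNK, IFNW1, IFNG, IFNL1, IFNL2 and IFNL3) had no row to match and were not analysed here. Among the 4 receptor subunits 2 rose and 1 fell. IFNGR2, the signalling subunit of the interferon gamma receptor, had 19.5, 23.4 and 25.0 CPM in panobinostat libraries A, B and C, against 45.1, 41.3 and 43.1 CPM in vehicle libraries A, B and C. The arms did not overlap, and the gene fell by 0.93 ± 0.10 in log2 units (adjusted p = 1.17e-06). IFNGR1, the chain that binds interferon gamma, went the other way: it averaged 44.8 ± 2.81 CPM with panobinostat and 34.6 ± 4.70 CPM with vehicle, a log2 rise of 0.37 ± 0.10 (adjusted p = 0.00456). The 2 chains of 1 receptor thus moved in opposite directions, and in FPKM they stood at 7.94 (IFNGR2) and 18.1 (IFNGR1) with panobinostat, against 14.0 (IFNGR2) and 12.96 (IFNGR1) with vehicle.

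The type I receptor differed less. IFNAR2, its high-affinity chain, rose by 0.33 ± 0.13 on the log2 scale (adjusted p = 0.0378), with 9.27, 10.1 and 11.2 CPM in panobinostat libraries and 7.85, 7.77 and 8.77 CPM in vehicle libraries. That call was lost with DESeq2 (adjusted p = 0.0785), with no filter (0.0673), and on leaving out panobinostat library B (0.0801) or C (0.165) or vehicle library A (0.0716) or B (0.109). IFNAR1, the partner chain, averaged 35.1 ± 1.06 CPM with panobinostat and 30.8 ± 0.644 CPM with vehicle (log2 fold change 0.19 ± 0.08, adjusted p = 0.056), which did not pass. It passed under 6 alternatives, among them library size alone (adjusted p = 0.00503) and a filter at a mean of 1 CPM (adjusted p = 0.0267).

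JAK1, the kinase shared by both receptor types, had 137.8, 129.0 and 119.6 CPM in panobinostat libraries, against 83.1, 101.9 and 92.6 CPM in vehicle libraries. Its arms did not overlap, and it rose 1.39-fold (log2 0.47 ± 0.09, adjusted p = 0.000183). TYK2, the partner kinase at the type I receptor, averaged 52.4 ± 3.70 CPM with panobinostat and 64.3 ± 5.43 CPM with vehicle, a log2 fall of 0.29 ± 0.09 (adjusted p = 0.00748). The TYK2 call was lost with library size alone (adjusted p = 0.081), with upper quartile scaling (0.131) and on the FPKM scale (limma, 0.118 to 0.141).

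Of the 6 transcription factors 3 rose, 1 fell and 2 did not pass. IRF3, which enters the nucleus after viral RNA or DNA is sensed and switches on interferon beta, had 39.2, 46.4 and 43.5 CPM in panobinostat libraries, against 17.9, 15.9 and 17.2 CPM in vehicle libraries. Each panobinostat value stood far above each vehicle value, and IRF3 (chromosome 19, 49659569 to 49665875) rose 2.53-fold (log2 1.34 ± 0.10, adjusted p = 1.82e-08). STAT2, the subunit that gives the ISRE-binding complex its activating domain, had 52.7, 61.5 and 54.4 CPM with panobinostat, against 31.0, 27.3 and 27.2 CPM with vehicle. It rose 1.98-fold (log2 0.98 ± 0.09, adjusted p = 2.58e-07). IRF1, an activator induced by interferon gamma, averaged 5.62 ± 0.340 CPM with panobinostat and 3.32 ± 0.376 CPM with vehicle and rose by 0.76 ± 0.17 on the log2 scale (adjusted p = 0.00104).

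IRF7, the factor that amplifies type I interferon production, fell: it had 1.43, 1.59 and 1.71 CPM in panobinostat libraries and 3.10, 2.63 and 2.71 CPM in vehicle libraries (log2 -0.82 ± 0.22, adjusted p = 0.00423). IRF9, the DNA-binding partner of STAT2, was scarce in both arms, with 0.966 ± 0.0843 CPM with panobinostat and 0.578 ± 0.319 CPM with vehicle (log2 0.78 ± 0.40, adjusted p = 0.0994). It passed on leaving out vehicle library A, the highest of the vehicle libraries (log2 1.13, adjusted p = 0.0367). IRF2, which competes with IRF1, differed by 0.02 ± 0.13 (adjusted p = 0.897). In FPKM the members of the ISRE-binding complex were far apart: STAT2 stood at 9.57 with panobinostat and 4.49 with vehicle, and IRF9 at 0.265 with panobinostat and 0.147 with vehicle. IRF9 shares a stretch of its strand with another counted gene (ENSG00000259529, 34 counts over all libraries), so its level is uncertain.

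Sensors and adaptors mostly did not pass. MAVS, the mitochondrial adaptor of the RNA sensors, stood highest of the 4 tested on the FPKM scale (6.22 with panobinostat and 6.27 with vehicle). It had 70.4 ± 7.50 CPM under panobinostat and 76.7 ± 6.02 CPM under vehicle (log2 -0.12 ± 0.09, adjusted p = 0.238). It passed on leaving out panobinostat library A (log2 -0.21, adjusted p = 0.0329). RIGI, a sensor of viral RNA ends, averaged 3.95 ± 0.342 CPM with panobinostat and 4.02 ± 1.18 CPM with vehicle (adjusted p = 0.894), and IFI16, a DNA sensor, averaged 3.001 ± 0.585 CPM with panobinostat and 2.86 ± 0.564 CPM with vehicle (adjusted p = 0.841). DHX58 (chromosome 17, 42101404 to 42112733), which encodes the RIG-I relative LGP2, had 9, 25 and 13 counts in panobinostat libraries, against 0, 0 and 2 counts in vehicle libraries. The arms did not overlap and the gene rose (adjusted p = 0.000156), with a ratio of the arms' counts per depth of 22.9 (exact 95% interval 5.99 to 194, counting error only). Its 2 vehicle counts both came from library C, and without that library the vehicle arm had none.

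All 3 genes grouped as ubiquitin-like modifier or brake rose. ISG15 (chromosome 1, 1001138 to 1014540), a ubiquitin-like protein that is attached to other proteins during the antiviral response, had 12.2, 19.6 and 19.4 CPM in panobinostat libraries, against 0.864, 0.876 and 1.27 CPM in vehicle libraries. The lowest panobinostat library stood several times above the highest vehicle library. ISG15 rose 16.9-fold, or 4.07 ± 0.24 on the log2 scale (adjusted p = 2.18e-09), on 866 counts with panobinostat and 49 with vehicle. USP18 (chromosome 22, 18149899 to 18177397), the protease that removes ISG15 and also damps the type I receptor, had 2.85, 3.13 and 2.51 CPM with panobinostat, against 1.22, 1.23 and 0.750 CPM with vehicle. It rose 2.66-fold (log2 1.41 ± 0.26, adjusted p = 0.000209), and its arms did not overlap. TRIM25, a ubiquitin ligase that acts on RIG-I, rose 1.31-fold (adjusted p = 0.0158). That call was lost on leaving out panobinostat library A (adjusted p = 0.0637), vehicle library B (0.0664) or vehicle library C (0.0512), and TRIM25 shares a stretch of its strand with C17orf67.

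**Figure D2:**
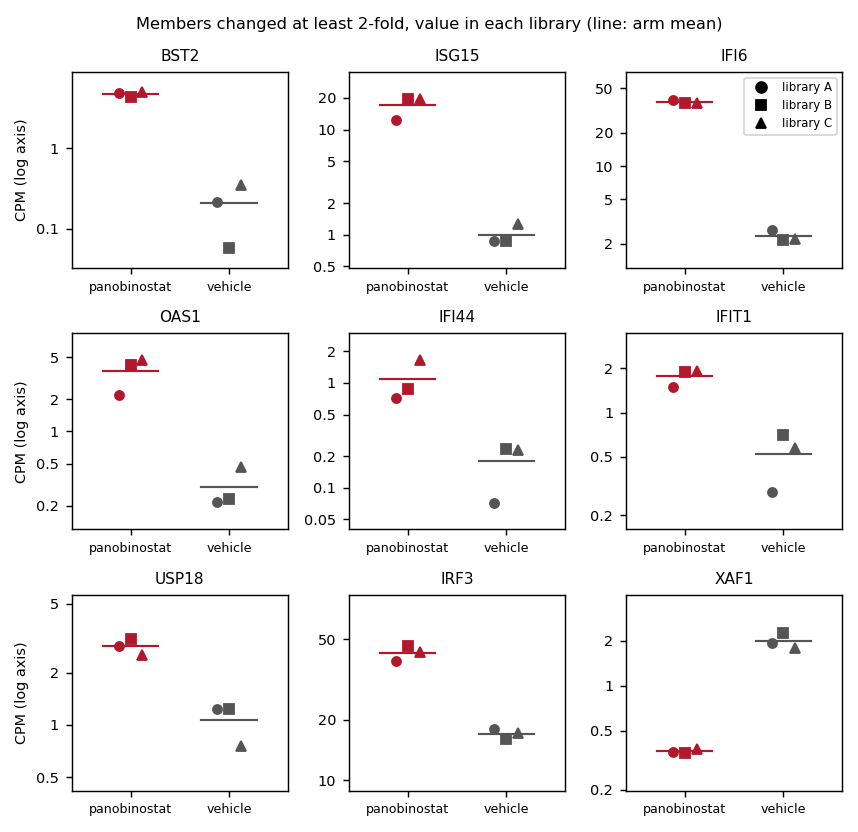
TMM-scaled CPM (log axis) in each library of the 9 interferon genes that changed at least 2-fold with a mean of 1 CPM or more in either arm, panobinostat left and vehicle right, with a line at each arm mean. XAF1 is the gene with lower values under panobinostat. In all 9 the arms do not overlap. Over all genes tested that held for 35.5% (panobinostat higher) and 33.4% (panobinostat lower). The 9 were chosen for a called change of at least 2-fold, so nothing is read from this. BST2, OAS1, IFI44 and IFIT1 passed the filter through the panobinostat libraries alone, and XAF1 through the vehicle libraries alone.

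Among the effectors, IFI6 had the smallest adjusted p of the 32 genes. IFI6 (chromosome 1, 27666061 to 27672218), a small membrane protein that limits flavivirus replication and opposes apoptosis, had 39.1, 36.9 and 37.0 CPM in panobinostat libraries, against 2.67, 2.16 and 2.19 CPM in vehicle libraries. The 3 panobinostat values lay close together, far above the vehicle values. It rose 16.2-fold (log2 4.02 ± 0.12, adjusted p = 3.34e-12) on 1866 counts with panobinostat and 112 with vehicle. BST2 (chromosome 19, 17402939 to 17405648), or tetherin, which holds budding virus at the cell surface, had 4.92, 4.37 and 4.92 CPM with panobinostat, against 0.216, 0.0584 and 0.346 CPM with vehicle. The arms were well apart, but the vehicle arm rested on 10 counts, against 235 with panobinostat. BST2 rose 22.1-fold (log2 4.47 ± 0.34, adjusted p = 3.64e-08), and by 5.10 on the log2 scale without vehicle library C.

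OAS1 (chromosome 12, 112906777 to 112933222), which senses double-stranded RNA and makes the messenger that switches on RNase L, had 2.21, 4.25 and 4.65 CPM in panobinostat libraries, against 0.216, 0.234 and 0.461 CPM in vehicle libraries. Library A was the lowest of the panobinostat libraries, for OAS1 as for ISG15, and still stood above all vehicle libraries. OAS1 rose 11.9-fold (log2 3.57 ± 0.39, adjusted p = 1.39e-06) on 190 counts with panobinostat and 15 with vehicle. IFI44 (chromosome 1, 78649796 to 78664078), an interferon-induced protein, had 0.713, 0.886 and 1.66 CPM with panobinostat, against 0.0720, 0.234 and 0.231 CPM with vehicle. It rose 5.81-fold (log2 2.54 ± 0.50, adjusted p = 0.000439) on 56 counts with panobinostat and 9 with vehicle, so its size is loosely held.

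The IFIT genes, whose proteins bind foreign RNA ends, stand side by side on chromosome 10 and did not move together. IFIT1 (89392546 to 89406486) had 1.497, 1.89 and 1.93 CPM in panobinostat libraries, against 0.288, 0.701 and 0.577 CPM in vehicle libraries. It rose 3.30-fold (log2 1.72 ± 0.33, adjusted p = 0.000305), with arms that did not overlap. IFIT5 (89414586 to 89421001) had 50.8, 47.1 and 44.8 CPM with panobinostat, against 62.7, 71.8 and 68.1 CPM with vehicle. The log2 fall of IFIT5 was 0.51 ± 0.08 (adjusted p = 7.23e-05), and its arms did not overlap either. In FPKM, IFIT5 was far above IFIT1 in both arms, at 12.3 against 0.399 with panobinostat and 16.2 against 0.109 with vehicle. IFIT2 was under the filter, with 1, 1 and 0 counts in panobinostat libraries and 9, 8 and 4 counts in vehicle libraries, a ratio of counts per depth of 0.0927 (exact 95% interval 0.0105 to 0.379). IFIT2 shares a stretch of its strand with another counted gene (ENSG00000232110, 41 counts over all libraries), so its level is uncertain. The promoters of IFIT1 and IFIT5 printed above both hold ISRE cores.

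EIF2AK2 (chromosome 2, 37099210 to 37157065), the kinase PKR that stops translation when double-stranded RNA is present, had 74.1, 70.5 and 71.7 CPM in panobinostat libraries, against 128.7, 141.7 and 142.8 CPM in vehicle libraries. The panobinostat values lay close together, far below all vehicle values, and the log2 fall was 0.93 ± 0.07 (fold 0.523, adjusted p = 4.13e-08). XAF1 (chromosome 17, 6755447 to 6775647), a partner of the apoptosis inhibitor XIAP, had 0.356, 0.354 and 0.374 CPM with panobinostat, against 1.95, 2.28 and 1.79 CPM with vehicle. In log2 units XAF1 fell by 2.44 ± 0.31 (fold 0.184, adjusted p = 7.59e-06), on 18 counts with panobinostat and 97 with vehicle. ISG20, an exonuclease that degrades viral RNA, averaged 1.05 ± 0.0671 CPM with panobinostat and 1.75 ± 0.194 CPM with vehicle, a fall of 0.73 ± 0.26 (adjusted p = 0.0229). The ISG20 call was lost with DESeq2 (adjusted p = 0.0971), upper quartile scaling (0.0589), limma with no filter (0.0728), and without panobinostat library C (0.0705), vehicle library A (0.0547) or vehicle library B (0.0514).

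RSAD2, or viperin, which makes a nucleotide that stops viral polymerases, had 5.70, 6.497 and 6.10 CPM in panobinostat libraries, against 3.24, 3.39 and 3.81 CPM in vehicle libraries. It rose 1.75-fold (log2 0.81 ± 0.16, adjusted p = 0.000485) with arms that did not overlap. Its neighbour CMPK2, which lies on the opposite strand and overlaps it, rose by 0.80 ± 0.08 (adjusted p = 7.02e-07), and reads were counted by strand. SAMHD1, which depletes the nucleotides that viruses need, averaged 91.1 ± 2.67 CPM with panobinostat and 81.1 ± 3.40 CPM with vehicle (log2 0.17 ± 0.07, adjusted p = 0.0513) and did not pass, although its arms did not overlap. SAMHD1 passed under 7 alternatives, with adjusted p-values of 0.00145 (upper quartile scaling) to 0.0472 (relative log expression size factors). PML, the scaffold of nuclear bodies, and IFI27, a relative of IFI6, did not pass (adjusted p = 0.685 and 0.115). IFI27 averaged 0.676 ± 0.164 CPM with panobinostat and 1.10 ± 0.567 CPM with vehicle.

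The 8 genes under the filter show how low parts of the programme stood. IFITM2 and IFITM3, membrane proteins that block viral entry, had 13 and 6 counts over the panobinostat libraries, against 17 and 7 counts over the vehicle libraries. They are near-identical to each other in parts, and reads that map to several places were not given a counting option, so these levels are uncertain. OAS3 had 10 counts with panobinostat and 5 with vehicle, and IFI35 had 11 with panobinostat and 7 with vehicle. PARP9, which acts in the interferon response with a ubiquitin ligase, had 7 with panobinostat and 12 with vehicle. IFI44L had 10 counts with panobinostat and 1 with vehicle, a ratio per depth of 9.73 (exact 95% interval 1.39 to 422). SAMD9, an antiviral factor against poxviruses, had 7, 7 and 3 counts in panobinostat libraries and 1, 0 and 1 in vehicle libraries, a ratio of 8.27 (1.96 to 73.8). With no filter, 3 of the 8 passed the same test: SAMD9 (adjusted p = 0.0116) and IFI44L (0.0366) were higher with panobinostat and IFIT2 (0.00266) lower.

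Levels per length place these changes on a common scale. In vehicle 6 of the 40 genes with a row reached 10 FPKM: IFIT5, SAMHD1, JAK1, IFNGR2, IFNGR1 and EIF2AK2. With panobinostat 7 did, and IFI6 led the list at 45.3 FPKM, against 2.60 FPKM in vehicle. ISG15 reached 18.8 FPKM with panobinostat, close to SAMHD1 and IFNGR1 there, against 1.02 FPKM in vehicle. OAS1, IFIT1, IFI44, DHX58 and IRF1 stood below 1 FPKM in both arms although they rose. Their levels were 0.254 to 0.777 FPKM with panobinostat and 0.0096 to 0.410 FPKM with vehicle. Counting every gene with a row, 19 reached 1 FPKM with panobinostat and 17 with vehicle.

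**Figure D3:**
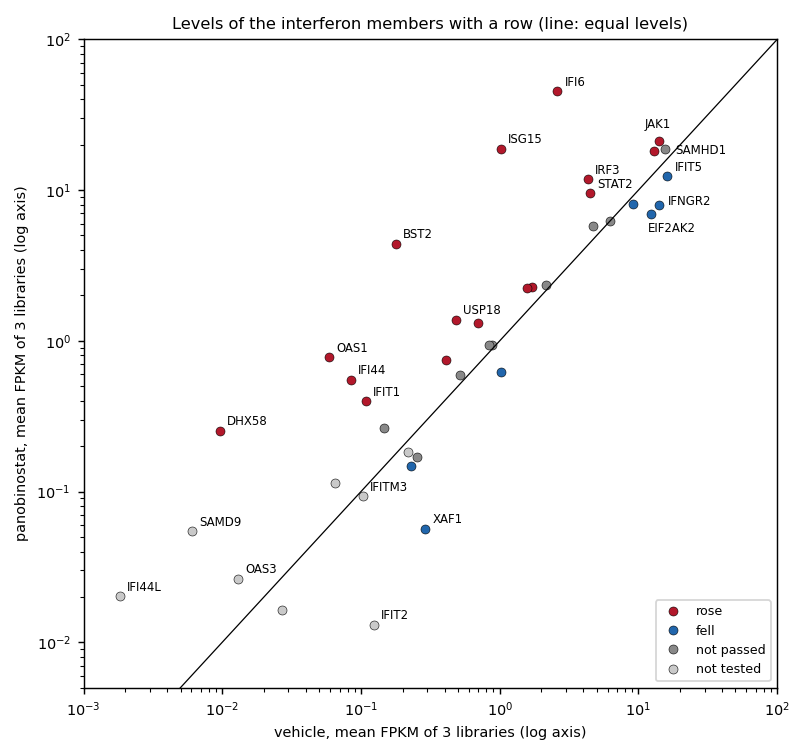
Mean FPKM with panobinostat (vertical, log axis) against vehicle (horizontal, log axis) for the 40 interferon genes with a row, coloured by call, with a line of equal levels. ISG15 and IFI6 lie far above the line at 18.8 and 45.3 FPKM with panobinostat, while EIF2AK2 and IFNGR2 lie below it among the best expressed genes.

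A wider list of 99 further genes of the pathway was read in the same fit. Of these 59 had a row, 50 were tested, 23 rose, 12 fell and 15 did not pass. So 70.0% were called, 46.0% rose and 24.0% fell, against 65.2%, 33.7% and 31.5% of all genes tested. Of the 50 genes 12 were kept through the panobinostat libraries alone, and of 37 kept through both arms 10 rose and 12 fell. The shares that rose or fell at all were not computed over all genes kept through both arms. Nothing is therefore read from the counts that rose or fell. Of those 37, 3 rose at least 2-fold (8.11%), against 9.63% of all genes kept through both arms. A fall of that size was seen in 1 (2.70%), against 5.17%. STAT3, which answers interleukin-6 type cytokines as well as interferon, rose 2.73-fold, with 219.1 ± 15.5 CPM under panobinostat and 80.3 ± 0.812 CPM under vehicle (adjusted p = 5.72e-10). JAK2, the kinase at IFNGR2, differed by 0.01 ± 0.14 (adjusted p = 0.93).

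Brakes of the pathway moved in both directions. SOCS3, an inhibitor of JAK kinases, had 11.97, 14.2 and 12.2 CPM in panobinostat libraries, against 3.60, 2.45 and 3.17 CPM in vehicle libraries, and rose 4.18-fold (adjusted p = 4.57e-08). SOCS2, a relative best known for damping growth hormone signals, had 18.6, 17.3 and 17.3 CPM with panobinostat, against 60.1, 57.6 and 57.2 CPM with vehicle. On the log2 scale SOCS2 fell by 1.72 ± 0.08 (adjusted p = 3.11e-10). Of the 7 brakes tested 2 rose (SOCS1 and SOCS3), 2 fell (SOCS2 and PTPN2, a phosphatase of JAK and STAT proteins) and 3 did not pass. Thus 28.6% rose and 28.6% fell, near the 33.7% and 31.5% of all genes tested, so nothing is read from these counts. SOCS1 passed the filter through the panobinostat libraries alone.

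GBP5, GBP2, GBP4 and NLRC5, which the rule named for the size of their change, had all passed the filter through the panobinostat libraries alone. GBP5, a guanylate-binding GTPase of defence against intracellular microbes, had 15.5, 12.8 and 13.4 CPM in panobinostat libraries, against 0, 0.0584 and 0.115 CPM in vehicle libraries. The vehicle arm held 3 counts in all, against 684 with panobinostat, a ratio per depth of 222 (exact 95% interval 75.6 to 1079). GBP2 had 6.98, 5.38 and 5.56 CPM with panobinostat, against 0.504, 0.234 and 0.519 CPM with vehicle, a 14.1-fold rise (adjusted p = 2.34e-08), and GBP4 rose by 2.26 ± 0.45 on the log2 scale. NLRC5, the activator of MHC class I genes, had 2.21, 2.30 and 2.30 CPM with panobinostat, against 0.288, 0.234 and 0.288 CPM with vehicle. It rose 8.24-fold (adjusted p = 9.9e-07). GBP genes are similar to one another in sequence, so reads could be shared among them and their separate levels are uncertain. Fitted changes of genes with so few vehicle counts move with single libraries: GBP5 rose by 7.64, and by 8.43 without vehicle library C, and GBP4 rose by 3.12 without vehicle library A.

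Of the 29 further antiviral effectors tested 14 rose (48.3%) and 9 fell (31.0%), against 33.7% and 31.5% of all genes tested. But 9 of the 29 had passed the filter through the panobinostat libraries alone, SLFN5, TRIM5, EPSTI1, APOL6 and TDRD7 among them. Of the 19 kept through both arms 4 rose and 9 fell, and nothing is read from these counts. SLFN5 had 170 counts with panobinostat and 3 with vehicle, all 3 in vehicle library B (ratio per depth 55.2, exact 95% interval 18.6 to 270). Its fitted rise was 5.63 ± 0.49 on the log2 scale, 8.79 without vehicle library B and 5.04 without vehicle library C. TRIM5, which binds retroviral capsids, had 4.78, 3.25 and 2.996 CPM in panobinostat libraries, against 0, 0.234 and 0.346 CPM in vehicle libraries, and rose by 4.09 ± 0.44 (4.73 without vehicle library C). EPSTI1, HELZ2 and APOL6, interferon-induced genes, rose by 3.21 ± 0.40, 1.55 ± 0.16 and 2.12 ± 0.41. TDRD7 had 42 counts with panobinostat and none with vehicle, which puts it at least 13.6-fold higher if the vehicle arm is set at a floor of 3 counts. Among those that fell was ADAR, the RNA editor that keeps cellular double-stranded RNA from alerting PKR and MDA5, with 383.9 ± 14.0 CPM under panobinostat and 517.8 ± 14.8 CPM under vehicle (log2 -0.43 ± 0.07, adjusted p = 6.55e-05). On the FPKM scale ADAR stood at 47.8 with panobinostat and 59.6 with vehicle, above EIF2AK2, which also fell (6.97 with panobinostat and 12.3 with vehicle).

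**Figure D4:**
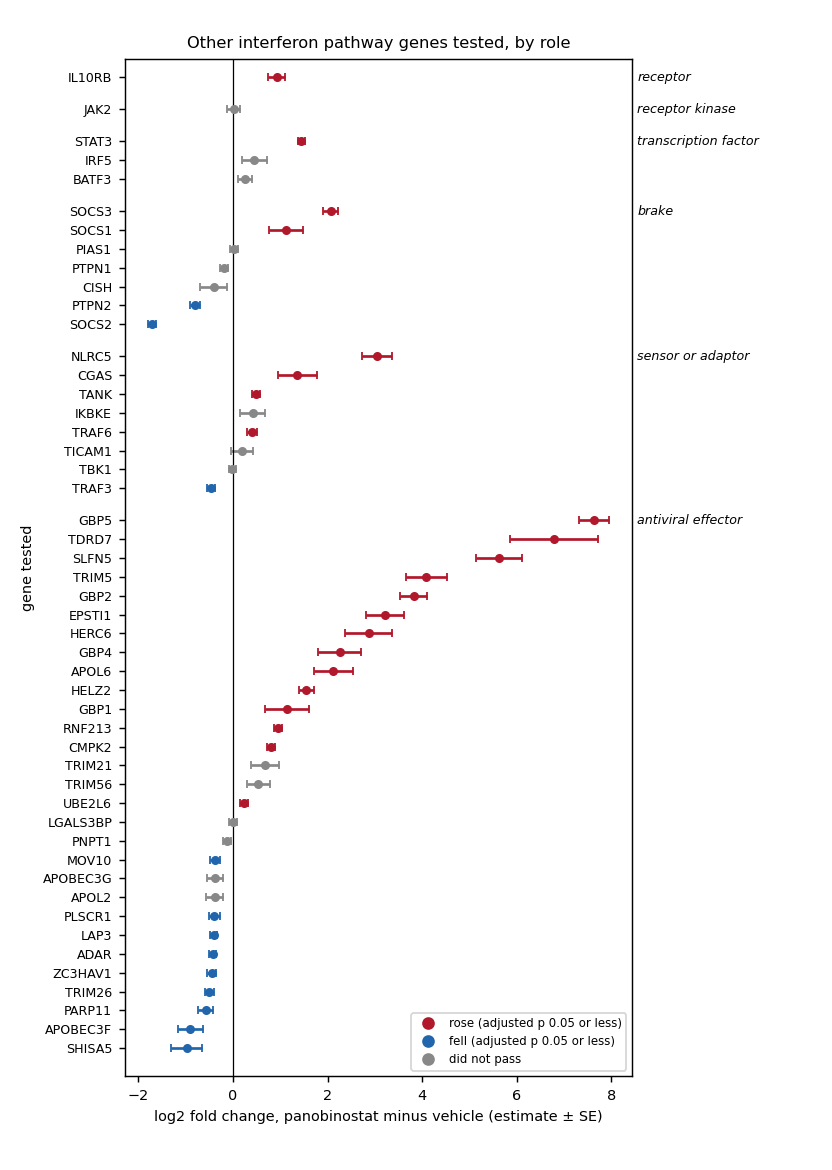
Log2 fold change (panobinostat minus vehicle, estimate ± SE) of 49 of the 50 further interferon pathway genes tested, grouped by role, with colour for the call. GBP5 (7.64) and TDRD7, which has no vehicle count, lie far to the right, and SOCS2 (-1.72) is the lowest.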

How the data were processed

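Total RNA was sequenced in 6 libraries labelled HT1197, 3 per arm, and groups and letters come from the titles and the condition label. The authors deposited counts per gene. The file headers give featureCounts 1.5.0-p3, whereas the submitters' processing notes give 1.5.1 and also name Novoalign 2.8, Subread and hg38. The headers give Ensembl release 84 genes, strand option 2 and assignment by largest overlap; no multi-mapping option is set in them. They list 9 alignment files, of which 3 were not analysed here. The deposited FPKM values are the authors' own, and 53265 of 53265 values compared lay within 1% of the scaled count, so they are the same measurement in another unit. Genes passing filterByExpr (minimum count of 10, minimum total of 15) were scaled with TMM factors, then tested with edgeR 4.0.16 in R 4.3.3 (quasi-likelihood test, no further term), Benjamini-Hochberg adjusted over 16084 genes. The steps were tested on simulated data. The SE is the log2 fold change divided by the square root of F. No 2 libraries of an arm differed as little as sampling noise (chi-square per gene 2.47 to 9.69).

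Alternatives were DESeq2 1.42.0, other scalings and filters, a block for the letter, a threshold of 0.01 on the adjusted p, each library left out, and limma 3.58.1 on log2(FPKM + 1) and log2(FPKM + 0.1). The members and lists were chosen with earlier results of these data known. Members that changed at least 2-fold with a mean of 1 CPM or more are given in every library; of the wider list, the 12 largest changes with a mean of 1 CPM or more in either arm and arms that do not overlap are named. Other genes named outside that rule were chosen after their values were seen: JAK2, CMPK2, ADAR, TDRD7, SOCS1 and PTPN2. Gene coordinates are from GENCODE release 29 on GRCh38. A result of the wider list is not reported here. Intervals and floors cover counting error only.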

Additional observations from a re-analysis of the deposited data

How the results depend on the processing

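The members counted as risen ranged over 14 to 16 and those fallen over 6 to 8 with each library left out. Other settings gave 15 risen and 6 fallen (DESeq2), 18 and 6 (library size alone), 18 and 5 (upper quartile scaling), and 14 and 6 (adjusted p of 0.01). Limma on log2(FPKM + 1) or log2(FPKM + 0.1) with a filter at 1 FPKM tested 19 members, of which 3 fell, and 28 genes of the wider list, of which 11 rose; fewer genes were tested there. The largest log2 changes shrink on log2(FPKM + 1), since the added 1 FPKM exceeds the level of low genes: BST2 rose by 2.20 and OAS1 by 0.74 there. The median over all genes of the log2 fold change shifted up by 0.14 with upper quartile scaling and by 0.11 with library size alone, and genes that rose made up 63.2% and 60.9% of calls, against 51.7%; with limma and no filter they made up 64.7%.

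Whether the letters pair the libraries cannot be settled with 3 libraries an arm. The correlation of deviations was 0.0815, -0.0213 and 0.104 for A, B and C, against -0.119 to 0.0469 between different letters. With the letter as a replicate block 16 members rose and 7 fell, 23 genes of the wider list rose and 13 fell, and no call changed among the 32 members tested or the 12 genes that the rule took from the wider list.

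The sign turned for 5 members that did not pass. IRF2 was at -0.0102 with no filter and -0.0051 to 0.043 with libraries left out. RIGI was at 0.0774 (library size alone), 0.10 (upper quartile scaling), 0.0512 (limma, no filter) and -0.18 to 0.23 with libraries left out. IFI16 ran over -0.0908 to 0.23 and PML over -0.0093 to 0.18 with libraries left out, and MAVS was at 0.0154 with upper quartile scaling. The 12 named genes of the wider list kept direction and call in each alternative that tested them. They were chosen as the largest called changes in these same libraries, with arms that do not overlap. That choice largely set this outcome, so nothing is read from it. Depth limits the genes with few vehicle counts; the size of their changes is loosely held.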
